A study of Mus musculus with 18 samples.

Results

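The 10 genes described here belong to the NRF2 antioxidant pathway. They are 10 of the 55401 identifiers in the count table and were followed across 18 RNA-seq libraries of mouse embryonic fibroblasts (MEFs). The genes were picked by name: the transcription factor gene Nfe2l2, its inhibitor gene Keap1, and the target genes Nqo1, Hmox1, Gclc, Gclm, Txnrd1, Srxn1, Slc7a11 and Gsr. Each matched a single identifier, and all 10 passed the filter on low counts in both series. The libraries formed 6 groups of 3. The S6K1 series compared S6K1 WT fibroblasts carrying an empty vector (EV), the same WT genotype carrying RAS, and the S6K1 KO genotype carrying RAS. The S6K1/S6K2 series had WT fibroblasts with either vector and fibroblasts lacking both S6K1 and S6K2 (DKO) with the RAS vector. RAS was a constitutively active form carried by a retrovirus, as used to drive oncogene-induced senescence. Loss of the kinases was compared in RAS cells only. MEFs were cultured from embryos without head and viscera, so a library could hold more than 1 cell type. S6K1 KO and WT cells came from littermates. DKO cells came from S6K2-null parents and their WT controls from other mothers, so genotype and breeding cannot be told apart in that comparison.

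NRF2, the protein made from Nfe2l2, is a transcription factor that is kept scarce in resting cells because KEAP1 hands it to a ubiquitin ligase. Oxidants and electrophiles modify KEAP1, NRF2 accumulates, pairs with a small MAF protein and binds antioxidant response elements near genes that make glutathione, recycle thioredoxin, detoxify quinones and break down haem. NRF2 is therefore controlled largely at the protein level, which RNA counts do not show. Oncogenic RAS is known to raise Nfe2l2 RNA in mouse fibroblasts.

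Promoter sequence is shown for the 4 genes whose window held a searched motif upstream of the start, because the results turn on which target genes moved. RefSeq windows (GRCm38.p6) reached from 250 bases before to 50 after each annotated start. At least 1 window was listed for 7 of the 10 genes (9 windows in all), and Hmox1, Gclc and Gsr had none in the table. The letters searched, on both strands, were TGACNNNGC, the core of the antioxidant response element, and TGANTCA, the binding letters of AP-1 (FOS and JUN proteins). The 2 overlap, since TGACTCAGC holds both. TGACNNNGC was present in 12.4% and TGANTCA in 7.81% of all 32851 windows of that length. Upstream of the start alone, the shares were 10.2% and 6.75%. Of the 7 genes with a window, 3 held TGACNNNGC and 1 held TGANTCA upstream in at least 1 window. The longer form TGANTCAGC was in 1.19%. In the lines that follow, capitals mark TGANTCA in Srxn1 and TGACNNNGC, on either strand, in the other 3 genes.
Srxn1, chr2:152105404-152105503, plus strand: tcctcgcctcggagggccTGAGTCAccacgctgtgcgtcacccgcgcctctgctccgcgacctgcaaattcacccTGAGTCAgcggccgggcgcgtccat
Nfe2l2, chr2:75704879-75704913, minus strand: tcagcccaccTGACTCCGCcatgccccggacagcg
Gclm, chr3:122245407-122245447, plus strand: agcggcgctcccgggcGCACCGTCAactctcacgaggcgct
Txnrd1, chr10:82859098-82859138, plus strand: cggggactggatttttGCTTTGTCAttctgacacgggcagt
Counting the start base as 0, the matches began at -102 and -45 in Srxn1, -240 in Nfe2l2, -134 in Gclm and -92 in Txnrd1. The Srxn1 match at -45 read TGAGTCAGC with its next letters. The Srxn1 window also held TGACNNNGC after the start, beginning at 28 on the opposite strand and outside the stretch printed. Txnrd1 had 3 windows, and the match lay in 1 of them. No searched motif was found in the windows of Keap1, Nqo1 or Slc7a11, which says only that these letters are not within those 300 bases.

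Total counts ran from 8319445 to 14402442 per library, so the least expressed of the genes, Slc7a11, still had over 5 CPM (counts scaled to equal library totals) in every library. Rps6kb1, which encodes S6K1, averaged 69.0 ± 6.7 CPM in WT RAS and 30.6 ± 6.8 CPM in S6K1 KO RAS cells (SD, n = 3). Rps6kb2, which encodes S6K2, averaged 25.8 ± 2.7 CPM in WT cells with RAS, and DKO cells with RAS had 2.84 ± 0.19 CPM. Hras was higher in every RAS library than in any EV library of its series, where reads of the retroviral and the resident gene may be counted together. All 12 fibroblast markers were detected in every group, with summed levels of 45340 to 59510 CPM in EV and 24180 to 37760 CPM in RAS libraries. Under RAS 1 of the 12 was called higher and 4 lower in the S6K1 series, and 0 and 6 in the S6K1/S6K2 series. Macrophage markers were also detected, at a sum of 754.8 to 4202 CPM in the WT libraries of the S6K1 series and 181.5 to 1671 CPM in those of the S6K1/S6K2 series. The group mean of this sum was lower in S6K1 KO RAS cells (273.5 to 962.2 CPM) and in DKO RAS cells (78.8 to 269.1 CPM). Both ranges overlapped those of the WT libraries, but each KO and DKO library lay below the WT RAS library of the same number. By number, KO RAS stood at 962.2, 746.6 and 273.5 CPM against 4202, 3746 and 816 CPM in WT RAS. DKO RAS stood at 269.1, 78.8 and 105.0 CPM against 1139, 192.2 and 281.3 CPM. Erythroid markers summed to at most 1.95 CPM, with Gata1, Hba-a1 and Hbb-bh1 at 0 in every group. Summed endothelial markers reached 14.5 CPM, muscle markers 27.4 CPM and neural markers 99.6 CPM. Epithelial markers summed to 0.873 to 10.1 CPM in EV and 58.8 to 167 CPM in RAS libraries. The part of the fibroblast and epithelial markers in the results was not tested. In bulk RNA, fewer cells of a type and less RNA per cell cannot be told apart.

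Levels per length, in CPM per kilobase of exon (CPM/kb), placed Hmox1, the haem-degrading enzyme, first in all 6 groups and Slc7a11, the cystine importer, last. Hmox1 stood at 80.6 ± 13.2 CPM/kb in WT EV and 212.3 ± 41.1 CPM/kb in WT RAS cells of the S6K1 series (SD, n = 3). Srxn1, Txnrd1 and Nfe2l2 filled ranks 2 to 4 in every group. In WT EV cells of the S6K1 series their order was Txnrd1 (55.2 ± 10.8 CPM/kb), Nfe2l2 (36.0 ± 4.8 CPM/kb) and Srxn1 (20.4 ± 3.1 CPM/kb), with no overlap between neighbours. In WT RAS cells of the same series Srxn1 came second at 84.8 ± 18.8 CPM/kb, and its range overlapped that of Txnrd1 (63.2 ± 9.1 CPM/kb), which overlapped that of Nfe2l2 (55.9 ± 4.8 CPM/kb). Keap1, Gsr, Gclm, Gclc and Nqo1 lay between 5.39 and 15.0 CPM/kb in group means. Most neighbours among these 5 overlapped. Slc7a11 stayed between 0.785 and 1.21 CPM/kb and overlapped no other of the genes.

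**Figure D1:**
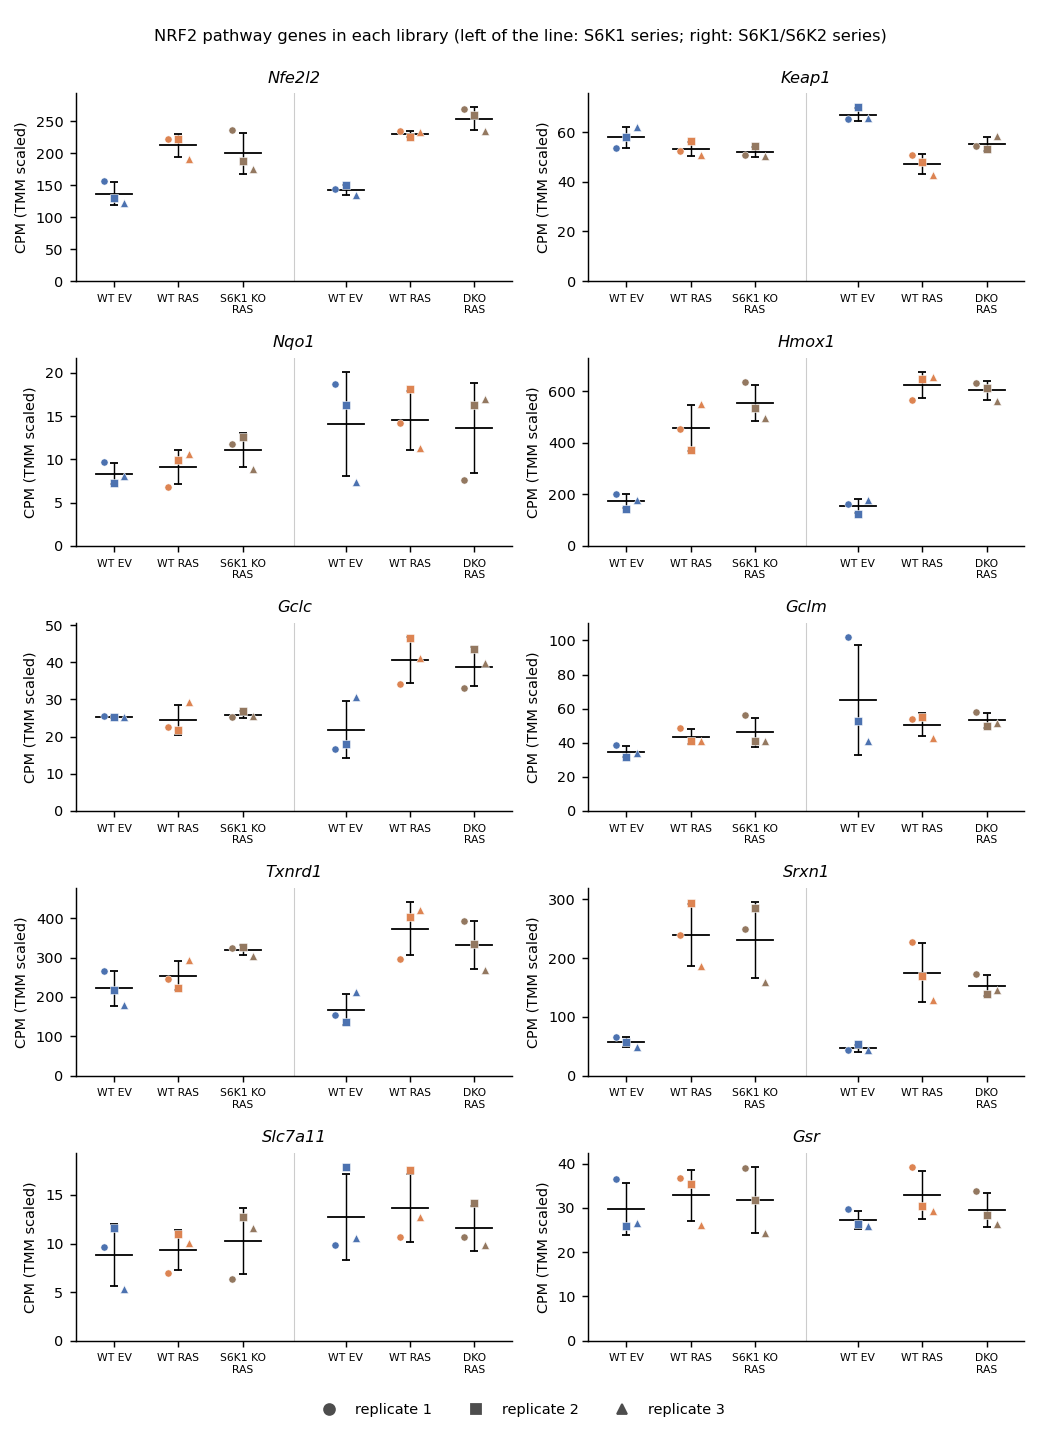
Level of each of the 10 genes in every library, in CPM after TMM scaling (vertical axes start at 0), for the 6 groups of 3. Symbols mark the replicate number, horizontal bars the mean and vertical bars the SD. The RAS libraries of Nfe2l2, Hmox1 and Srxn1 lie above the EV libraries in both series, while the KO and DKO libraries overlap the WT RAS libraries for these 3 genes.

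The first question was how RAS changed the pathway in WT cells. Nfe2l2, Hmox1 and Srxn1 rose in both series. Txnrd1 and Gclc rose and Keap1 fell in the S6K1/S6K2 series, and these 3 did not pass the test in the S6K1 series. Thus 3 of the 10 genes were called higher and 0 lower in the S6K1 series, where 7.15% of the 14036 genes tested were called higher and 6.09% lower. In the S6K1/S6K2 series 5 were called higher and 1 lower, against 13.5% and 12.7% of the 13881 genes tested. A call means an adjusted p under 0.05. The median log2 fold change of the 10 genes was 0.17 and 0.48 in the 2 series, beside 0.00 and -0.02 over all genes tested. The EV and RAS groups did not overlap for 4 and 6 of the 10 genes, where 30.9% and 42.5% of all tested genes did not overlap in either direction. EV and RAS libraries of the same number were taken to come from the same WT cells, which the sample titles imply but do not state. With that pairing in the fit, 4 of the 10 genes were called higher in the S6K1 series (Gclm in addition), while the share called among all genes rose to 36.2%. The called members of the S6K1/S6K2 series were the same 6 with the pairing, with 28.7% of all genes called.

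Nfe2l2 (ENSMUSG00000015839.6, chr2:75675513-75704663 in GRCm38.p6, the build of every position given) encodes NRF2 itself. In WT EV libraries of the S6K1 series it stood at 157, 130.4 and 123 CPM, and under RAS at 223, 223 and 191.5 CPM. The EV values of the S6K1/S6K2 series were 144, 149.8 and 134 CPM and the RAS values 234, 225 and 233 CPM. Every RAS library lay above every EV library of its series. The log2 fold change was 0.64 (SE 0.15, adjusted p = 0.0225) and 0.69 (SE 0.11, adjusted p = 0.00205), a rise of 1.55-fold and 1.62-fold. Of all tested genes, 11.04% and 14.8% had a larger positive change. The call in the S6K1 series was lost without WT EV replicate 2 (adjusted p = 0.0833) or 3 (0.0836), or without WT RAS replicate 1 (0.0745) or 2 (0.0871), and with the pairing the adjusted p was 0.000268.

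Keap1 (ENSMUSG00000003308.15, chr9:21229730-21239332) encodes the sensor that targets NRF2 for degradation. Its values were 53.5, 58.3 and 62.0 CPM in EV and 52.5, 56.4 and 51.0 CPM in RAS libraries of the S6K1 series, which overlapped. Those of the S6K1/S6K2 series were 65.5, 70.1 and 65.7 CPM in EV and 51.0, 47.9 and 42.7 CPM in RAS, with a gap between the groups. The log2 difference was -0.12 (95% interval -0.35 to 0.11, adjusted p = 0.507) in the first series. It fell by 0.51 in the second (SE 0.11, adjusted p = 0.00864), and this call held in each of 9 fits that left out 1 library.

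Hmox1 (ENSMUSG00000005413.8, chr8:75093618-75100593) encodes haem oxygenase 1, which opens the haem ring and releases iron, carbon monoxide and biliverdin. It stood at 200.3, 144 and 179 CPM in EV and at 455, 372 and 549.5 CPM in RAS libraries of the S6K1 series. The S6K1/S6K2 series had 163, 123 and 179 CPM in EV and 564, 648 and 656 CPM in RAS. The lowest RAS library was thus above the highest EV library in each series. RAS raised Hmox1 2.63-fold (log2 1.40, SE 0.18, adjusted p = 0.00148) and 4.02-fold (log2 2.01, SE 0.16, adjusted p = 0.000112). It was in the top 4.6% and 4.04% of all genes by log2 fold change.

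Macrophages are rich in Hmox1, and their markers differed by replicate number more than by RAS. Summed over 19 markers, they stood at 3727, 2838 and 754.8 CPM in EV and 4202, 3746 and 816 CPM in RAS libraries of the S6K1 series. The corresponding sums were 1671, 181.5 and 238.1 CPM and 1139, 192.2 and 281.3 CPM in the S6K1/S6K2 series. None of the markers was called under RAS in either series, with median log2 fold changes of 0.06 and -0.87, and no tested marker was under an unadjusted p of 0.05. Over all genes, 3710 of the 14036 and 5524 of the 13881 tested were under that p. With the pairing 6 markers were called in each series, where 36.2% and 28.7% of all genes were. In the replicate numbers with the lowest marker sums, the log2 difference of Hmox1 between RAS and EV was 1.62 (replicate 3, S6K1 series) and 2.39 (replicate 2, S6K1/S6K2 series), each from a single pair. The part of the markers in the Hmox1 values was not tested. Hmox1 is also a heat shock gene. Of 6 heat shock genes (Hsf1, Hspa1a, Hspa1b, Dnajb1, Hsph1 and Hspb1), 0 were called in either series, and the median log2 fold change was 0.09 and 0.16. Under an unadjusted p of 0.05 were 1 and 3 of them, beside the 3710 and 5524 of all genes given above. Their log2 fold changes ran from -0.70 to 0.41 and from -0.32 to 0.96. EV and RAS did not overlap for 1 and 3 of them, beside 30.9% and 42.5% of all genes. With the pairing 2 were called higher and 1 lower in the S6K1 series: Hspb1 and Hsph1 at log2 0.41 and 0.28 and Hspa1b at -0.70 (paired adjusted p = 0.00688, 0.0337 and 0.00432). The part of heat shock in the Hmox1 values was not tested either.

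**Figure D2:**
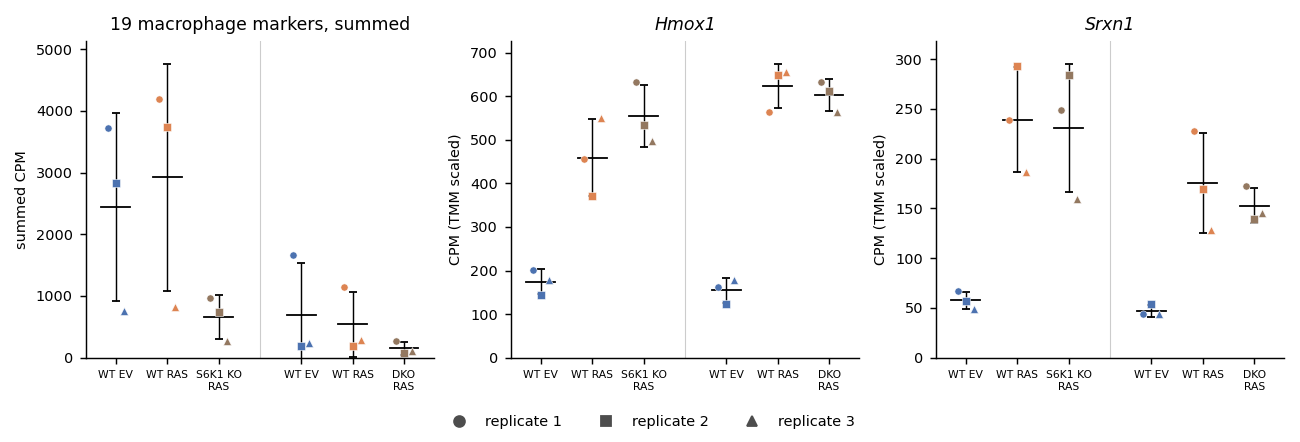
Summed level of 19 macrophage markers (left), Hmox1 (middle) and Srxn1 (right) in each library, in CPM with axes from 0, by group and replicate number, with mean and SD bars. The group mean of the marker sum is lowest for KO and DKO RAS within each series. Their libraries overlap those of the WT groups, but each lies below the WT RAS library of the same number. Hmox1 spans 497 to 634 CPM in KO and 563 to 633 CPM in DKO libraries, against 372 to 549.5 CPM and 564 to 656 CPM in the WT RAS libraries of the 2 series.

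Srxn1 (ENSMUSG00000032802.8, chr2:152105524-152111376) encodes sulfiredoxin, which rescues over-oxidised peroxiredoxins. EV libraries of the S6K1 series stood at 66.6, 56.9 and 49.1 CPM and RAS libraries at 238, 293 and 186.5 CPM. The other series had 43.5, 53.5 and 43.6 CPM in EV and 228, 169 and 128 CPM in RAS. No RAS library came within the EV range. This was a 4.15-fold rise (log2 2.05, SE 0.24, adjusted p = 0.000915) and a 3.73-fold rise (log2 1.90, SE 0.21, adjusted p = 0.000373), the largest log2 change of the 10 genes in the S6K1 series and second to Hmox1 in the other. Its promoter window is the one printed above with 2 TGANTCA matches.

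Txnrd1 (ENSMUSG00000020250.10, chr10:82833951-82897724) encodes the selenoenzyme that reduces thioredoxin with NADPH. In the S6K1 series EV (267, 219 and 179.9 CPM) and RAS (246, 222 and 294 CPM) overlapped, with a log2 difference of 0.19 (95% interval -0.17 to 0.56, adjusted p = 0.489). In the S6K1/S6K2 series EV libraries were at 155, 136 and 213 CPM and RAS libraries at 297, 404 and 419.9 CPM, with no overlap. The rise there was 2.22-fold (log2 1.15, SE 0.22, adjusted p = 0.00463). It was called in all 9 fits that left out 1 library.

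Gclc (ENSMUSG00000032350.9, chr9:77754535-77794489) and Gclm (ENSMUSG00000028124.15, chr3:122245487-122267215) encode the catalytic and the modifier subunit of glutamate-cysteine ligase, which sets the rate of glutathione synthesis. Gclc stood at 25.5, 25.2 and 25.2 CPM in EV and 22.6, 21.9 and 29.2 CPM in RAS libraries of the S6K1 series, a log2 difference of -0.04 (95% interval -0.34 to 0.26, adjusted p = 0.878). The S6K1/S6K2 series gave 16.8, 18.04 and 30.8 CPM in EV and 34.0, 46.4 and 41.1 CPM in RAS. EV replicate 3 was the highest of its group, yet all 3 RAS libraries exceeded it. Gclc rose 1.85-fold there (log2 0.89, SE 0.23, adjusted p = 0.0205). The call was lost without WT EV replicate 1 (adjusted p = 0.0518) or 2 (0.0768), or WT RAS replicate 2 (0.0783) or 3 (0.0606). Gclm was called in neither series without the pairing. Its values in the S6K1 series were 38.4, 31.8 and 34.2 CPM in EV and 48.4, 41.3 and 41.0 CPM in RAS, with no overlap but a log2 difference of 0.32 that missed the threshold (95% interval -0.02 to 0.67, adjusted p = 0.22). With the pairing it was called (log2 0.32, adjusted p = 0.0153). EV replicate 1 of the S6K1/S6K2 series stood apart at 101.9 CPM from 53.0 and 40.7 CPM, against 54.0, 54.9 and 42.9 CPM under RAS. The log2 difference of -0.37 (95% interval -1.0 to 0.27, adjusted p = 0.366) became 0.11 without that library (adjusted p = 0.672).

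Slc7a11 (ENSMUSG00000027737.10, chr3:50364936-50499087) encodes the light chain of the cystine-glutamate exchanger, which feeds glutathione synthesis, and responds to ATF4 as well as to NRF2. It ranged from 5.31 to 11.6 CPM in EV and 7.0 to 10.98 CPM in RAS libraries of the S6K1 series, and from 9.87 to 17.9 CPM and 10.7 to 17.5 CPM in the other. The log2 differences of 0.08 (95% interval -0.69 to 0.85) and 0.09 (-0.54 to 0.72) did not pass the test (adjusted p = 0.912 and 0.838). Atf4 itself stood at 483, 268 and 220.3 CPM in EV and 242, 209.6 and 223 CPM in RAS libraries of the S6K1/S6K2 series, so that EV replicate 1 was again highest. Of 8 ATF4 pathway genes 0 were called higher and 1 lower in the S6K1 series, and 0 and 2 in the S6K1/S6K2 series. With the pairing the S6K1 series had 1 higher and 5 lower. The pseudokinase gene Trib3 fell by 1.01 and by 1.43 on the log2 scale (adjusted p = 0.0364 and 0.0198), and Ddit3, the stress-linked transcription factor CHOP, fell by 1.05 in the second (adjusted p = 0.0369). Leaving out 1 library kept the Trib3 call in 3 of 9 fits in the S6K1 series (adjusted p up to 0.136). In the other series it was lost without WT RAS replicate 2 (0.0655) or 3 (0.0744), and the Ddit3 call was lost without any 1 RAS library, WT or DKO (0.0506 to 0.118). EV replicate 1 of the S6K1/S6K2 series was the highest library of its group for both genes, with Trib3 at 113 CPM and Ddit3 at 203 CPM. Without 1 library the log2 fold changes of that series ran from -1.76 to -0.85 for Trib3 and from -1.28 to -0.45 for Ddit3.

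Gsr (ENSMUSG00000031584.16, chr8:33653238-33698162) regenerates reduced glutathione, and Nqo1 (ENSMUSG00000003849.8, chr8:107388225-107403205) reduces quinones. Neither was called in either series. Gsr stood at 36.5, 25.9 and 26.7 CPM in EV and 36.8, 35.4 and 26.2 CPM in RAS libraries of the S6K1 series, and the other series gave 29.7, 26.4 and 26.0 CPM and 39.2, 30.4 and 29.4 CPM. Replicate 1 was the highest library in each of these groups, and EV and RAS overlapped in both series. The log2 differences were 0.14 (95% interval -0.35 to 0.63) and 0.27 (-0.07 to 0.61). Nqo1, often used as a readout of NRF2, was low, at 9.74, 7.30 and 8.06 CPM in EV and 6.83, 9.89 and 10.6 CPM in RAS libraries of the S6K1 series. The S6K1/S6K2 series gave 18.7, 16.3 and 7.34 CPM in EV and 14.3, 18.1 and 11.3 CPM in RAS. Neither pair of groups was separated. The log2 differences were 0.12 (95% interval -0.38 to 0.62, adjusted p = 0.772) and 0.04 (-0.82 to 0.90, adjusted p = 0.947), and the second interval holds changes up to the size of that in Gclc.

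**Figure D3:**
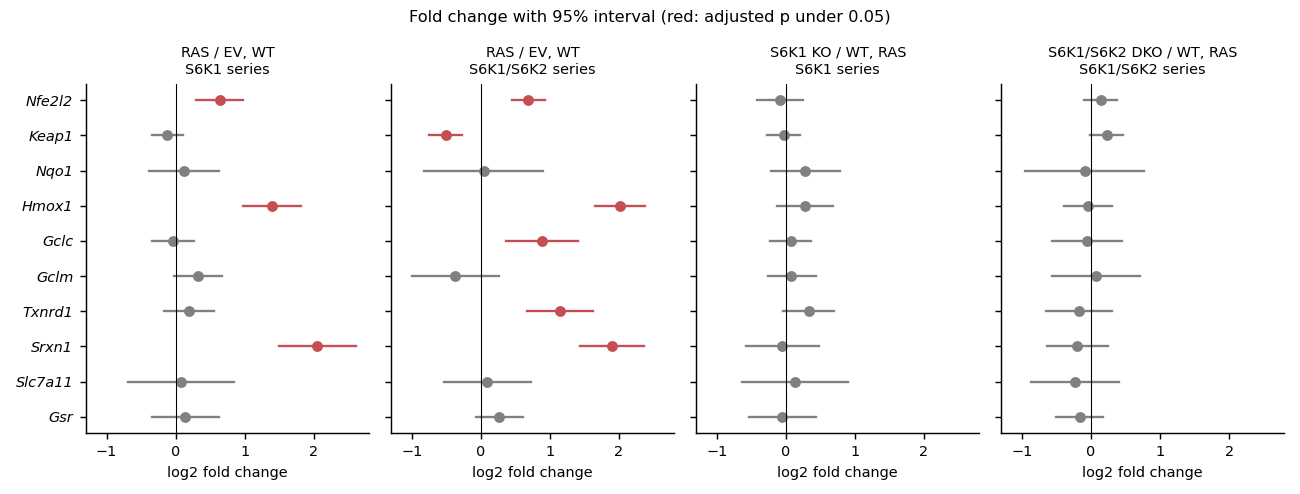
Log2 fold change of the 10 genes with its 95% interval in the 4 comparisons, red where the adjusted p was under 0.05. The red points are Nfe2l2, Hmox1 and Srxn1 in both RAS comparisons, with Txnrd1, Gclc and Keap1 added in the S6K1/S6K2 series, and no point is red for loss of S6K1 or of both kinases.

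Whether the RAS effect itself differed between the series was tested across all 18 libraries. None of the 10 genes was called, and 0.0% of the 14483 genes tested were, by edgeR's quasi-likelihood test. Keap1, Hmox1, Gclc and Txnrd1, 4 of the 10, were under an unadjusted p of 0.05, as were 12.6% of all genes, and DESeq2 called 0 of the 10 and 142 genes in all. The log2 effect in the S6K1/S6K2 series minus that in the S6K1 series was 0.95 for Txnrd1 (95% interval 0.36 to 1.55, adjusted p = 0.252), 0.92 for Gclc (0.33 to 1.51, adjusted p = 0.262), 0.60 for Hmox1 (0.10 to 1.11, adjusted p = 0.335) and -0.40 for Keap1 (-0.69 to -0.11, adjusted p = 0.288). Without WT EV replicate 3 of the S6K1/S6K2 series, Gclc and Txnrd1 passed the threshold (adjusted p = 0.0117 and 0.0411), among 290 genes in all. That library held the highest Txnrd1 and Gclc values of its group. With all 18 libraries, a different RAS response of these genes in the 2 series was thus not shown.

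The 10 genes belong to a wider antioxidant programme, for which 8 lists with 97 genes in all were examined: NRF2 partners, glutathione supply, glutathione S-transferases, thioredoxin and peroxiredoxin, NADPH supply, iron and haem, detoxifying enzymes, and superoxide and peroxide removal. Under RAS, 11 of 88 tested were called higher and 5 lower in the S6K1 series (12.5% and 5.68%, with 7.15% and 6.09% over all genes). In the S6K1/S6K2 series 25 of 89 were called higher and 10 lower (28.1% and 11.2%, with 13.5% and 12.7% over all genes). The median log2 fold change was 0.18 and 0.16. With the pairing the S6K1 series had 38 higher and 15 lower, where 36.2% of all genes were called in either direction, and the S6K1/S6K2 series 27 and 12, where 28.7% were. The lists therefore held genes of both directions, which are described by role.

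Among 13 NRF2 partner and turnover genes, 1 was called higher and 1 lower in the S6K1 series, and 2 higher and 0 lower in the S6K1/S6K2 series. The pairing gave 2 higher and 3 lower, and 3 higher and 1 lower. Maff, a small MAF protein that pairs with NRF2, rose 2.23-fold and 2.54-fold (adjusted p = 0.0404 and 0.00569). The second call held in all 9 fits that left out 1 library. The first held in 4 of 9 and was lost without WT EV replicate 2 or 3, WT RAS replicate 1 or 2, or KO RAS replicate 2 (adjusted p = 0.0646 to 0.139). Bach1, a haem-sensing repressor that competes with NRF2 for the same elements, fell by 0.95 on the log2 scale in the S6K1 series (adjusted p = 0.0139, lost without WT EV replicate 2 at 0.0573 or WT RAS replicate 1 at 0.0557). It stood at 90.0, 105.6 and 70.8 CPM in EV and 38.5, 48.6 and 51.1 CPM in RAS libraries there, with no overlap. Bach1 in the S6K1/S6K2 series differed by -0.17 (adjusted p = 0.35). Sqstm1, the autophagy adaptor p62 that binds KEAP1, rose 1.52-fold in that series (adjusted p = 0.0273, and 0.0662 to 0.107 without WT EV replicate 2 or any 1 WT RAS library), and showed a log2 difference of 0.51 in the other (adjusted p = 0.2, and 0.00155 with the pairing).

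Of 11 glutathione supply genes tested, 2 were called higher and 0 lower in the S6K1 series and 4 higher and 1 lower in the other. With the pairing the S6K1 series had 5 higher and 2 lower. Ggct, which acts on gamma-glutamyl peptides in the glutathione cycle, stood at 3.55, 2.61 and 5.68 CPM in EV and 28.1, 21.0 and 28.9 CPM in RAS libraries of the S6K1 series. It rose 6.64-fold and 5.32-fold in the 2 series (adjusted p = 0.000408 and 0.000642). Glrx, a glutaredoxin, rose 2.38-fold and 2.43-fold (adjusted p = 0.00264 and 0.000797). Gpx7, a peroxidase of the endoplasmic reticulum, fell by 1.35 on the log2 scale in the S6K1/S6K2 series (adjusted p = 0.00221). Glutathione S-transferases moved both ways, with 1 higher and 1 lower of 17 in the S6K1 series and 3 higher and 5 lower of 18 in the other. The pairing raised the first to 5 higher and 3 lower. Gstp1 rose 1.65-fold in the S6K1 series (adjusted p = 0.00587), and Gsto1 rose 3.02-fold and Mgst3 1.62-fold in the S6K1/S6K2 series (adjusted p = 0.00967 and 0.0115). Gstt1 fell by 2.89 and Gstm2 by 1.79 on the log2 scale in that series (adjusted p = 0.00459 and 0.0087). Members of this family share near-identical sequence with paralogs, so single-gene counts are uncertain.

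Thioredoxin and peroxiredoxin genes gave 2 higher and 0 lower of 11 in the S6K1 series and 3 higher and 1 lower in the S6K1/S6K2 series. With the pairing 7 were higher and 0 lower in the first. Prdx6 and Prdx1, cytosolic peroxide-reducing enzymes, rose 1.96-fold and 1.83-fold in the first (adjusted p = 0.017 and 0.0441). Without WT EV replicate 2 or 3 or WT RAS replicate 1 or 2 of that series their adjusted p was 0.0617 to 0.0724 for Prdx6 and 0.0881 to 0.147 for Prdx1, which was also lost without KO RAS replicate 2 (0.0561). They rose 2.19-fold and 1.85-fold in the second (adjusted p = 0.000476 and 0.00152), where both calls held without each library in turn. Prdx4, the peroxiredoxin of the endoplasmic reticulum, fell by 1.23 on the log2 scale in the second (adjusted p = 0.0105). Of 7 genes that supply NADPH, 1 was called higher in the S6K1 series and 5 in the S6K1/S6K2 series, with 0 lower in both. With the pairing the S6K1 series had 6 higher and 1 lower. Taldo1, the transaldolase of the pentose phosphate pathway, rose 1.93-fold and 1.77-fold (adjusted p = 0.0315 and 0.00313). The first call was lost without the same 5 libraries as that of Prdx1 (adjusted p = 0.0514 to 0.109). G6pdx, which opens that pathway, rose 1.51-fold in the S6K1/S6K2 series (adjusted p = 0.00556).

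Iron and haem genes are the neighbours of Hmox1 in metabolism. Of 9 tested, 1 was called higher and 1 lower in the S6K1 series, and 4 higher and 1 lower in the S6K1/S6K2 series. The pairing gave 4 higher and 1 lower in the first. Blvrb, a biliverdin reductase downstream of haem oxygenase, rose 2.14-fold and 1.84-fold (adjusted p = 0.00317 and 0.00597). Fech, which makes haem by inserting iron, fell by 0.64 and by 0.74 on the log2 scale (adjusted p = 0.00289 and 0.00317). Ftl1, the ferritin light chain, rose 1.62-fold in the S6K1/S6K2 series (adjusted p = 0.00402), in a gene with many processed copies that can share its reads. Detoxifying enzymes gave 3 higher and 2 lower of 16 in the S6K1 series and 4 and 2 in the other, and the pairing raised the first to 8 and 4. Akr1b8, an aldo-keto reductase, rose 2.23-fold and 3.38-fold (adjusted p = 0.00184 and 0.00406). Akr1c18, a reductase of the same superfamily, was at 7, 3 and 9 counts in EV and at 129, 200 and 303 counts in RAS libraries of the S6K1/S6K2 series, a fitted rise of 38.7-fold (adjusted p = 0.000112). Akr1c14 fell by 3.08 there (adjusted p = 0.0147, and 0.0533 without WT RAS replicate 3), from 87.9, 26.0 and 11.7 CPM to 6.92, 6.19 and 1.85 CPM. Without 1 library its log2 fold change ran from -3.52 to -1.93. Ephx1, the microsomal epoxide hydrolase, fell by 0.95 and by 0.60 (adjusted p = 0.0115, lost at 0.0536 without WT RAS replicate 2, and 0.00823). Akr1b3 rose 1.47-fold in the S6K1 series (adjusted p = 0.0448), a call that held without WT RAS replicate 3 and was lost without each other library of the series (0.0592 to 0.158). None of 4 superoxide and peroxide removal genes was called in either series without the pairing. Of these, 0 were under an unadjusted p of 0.05, where 3710 of 14036 and 5524 of 13881 genes were. With the pairing the superoxide dismutase genes Sod1 and Sod3 were called in the S6K1 series, at log2 0.35 and -0.79 (paired adjusted p = 0.0136 and 0.0042). Of the NADPH oxidase genes, which make superoxide or peroxide, 0 of 8 were called higher and 1 lower in the S6K1 series and 0 of 7 were called in the other, where the pairing called Cybb lower (log2 -1.11, paired adjusted p = 0.0291). Cybb is also 1 of the 19 macrophage markers, which had a median log2 fold change of -0.87 in that series. With the pairing 6 of these markers were called lower there, and their part in the Cybb value was not tested. Nox4 fell by 0.71 in the S6K1 series (adjusted p = 0.0121, and 0.0681 without WT RAS replicate 2).

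**Figure D4:**
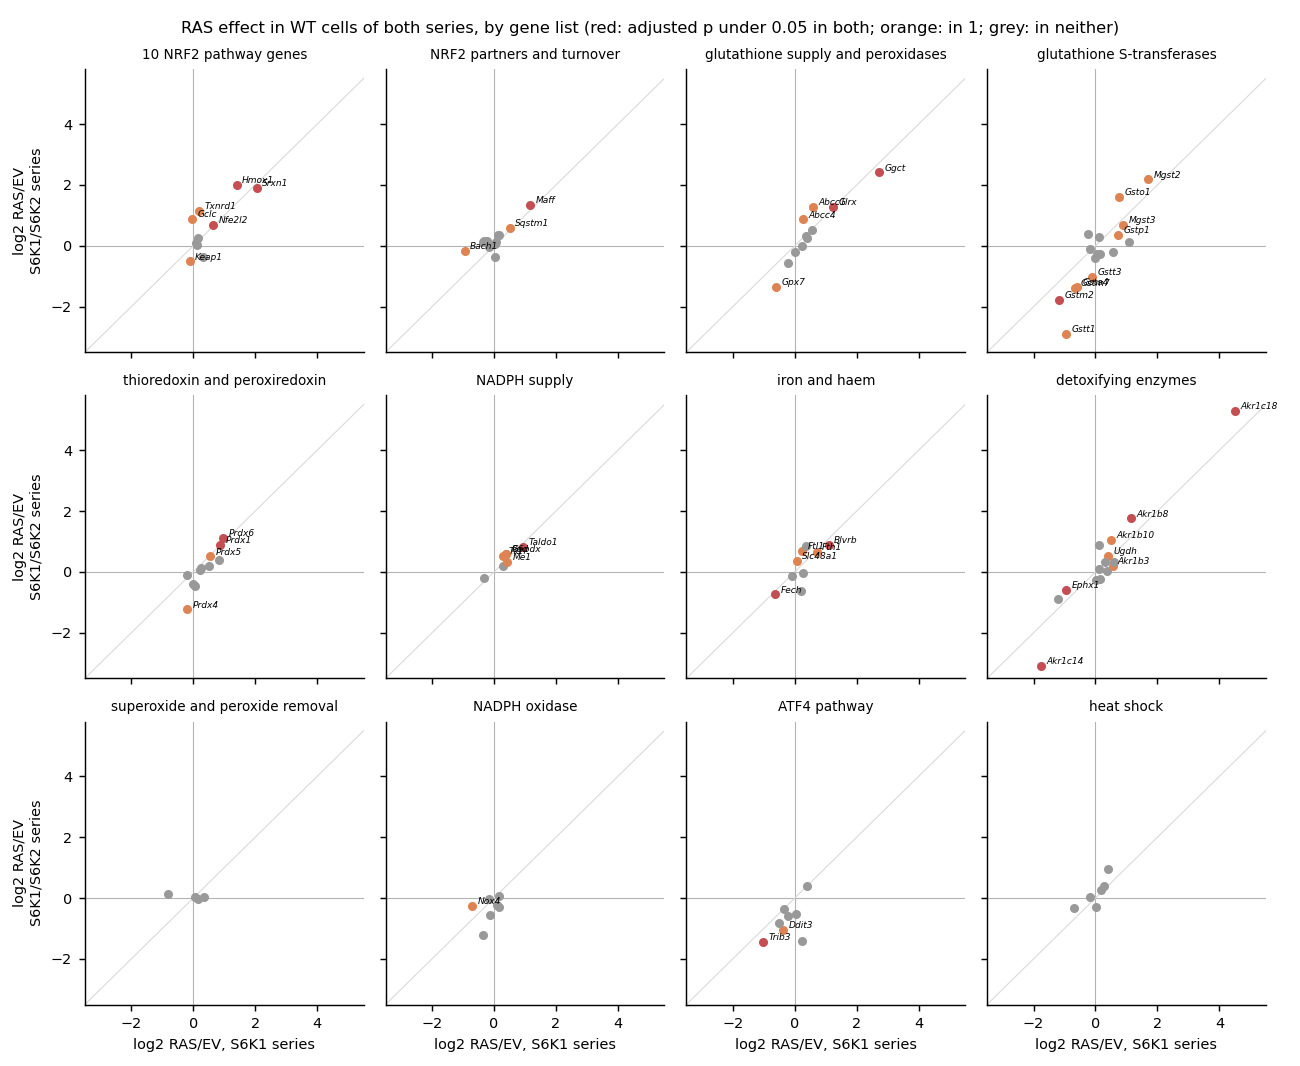
Log2 fold change of RAS against EV in WT cells, S6K1 series on the horizontal and S6K1/S6K2 series on the vertical axis, for the 10 genes and the 11 other lists. Each point is a gene tested in both series, the diagonal marks equal change, and named points were called in 1 (orange) or both (red) series. Srxn1, Hmox1, Ggct, Glrx, Akr1b8 and Akr1c18 sit high on both axes, while Txnrd1 and Gclc sit high on the vertical axis alone.

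The second question was whether loss of S6K1, or of both kinases, changed the pathway in RAS cells. None of the 10 genes was called in either comparison by edgeR's quasi-likelihood test, 0 were under an unadjusted p of 0.05 in both, and DESeq2 called 0 in both. The background was low as well: 0.00712% of genes were called for S6K1 KO and 0.0216% for DKO, and 6.86% and 1.29% were under an unadjusted p of 0.05. For S6K1 KO the pairing by number raised the share of all genes called to 4.15% (583 genes), with 0 of the 10 among them. Of Rps6kb1, Rps6kb2 and Hras, 0 were called for S6K1 KO without the pairing and 2 were called lower for DKO. The deleted Rps6kb1 itself, at log2 -1.17 in KO, had an adjusted p of 0.234, and of 0.000101 with the pairing. A gene not called for KO without the pairing can therefore still differ. Fold changes of the 10 genes lay between -0.09 and 0.33 on the log2 scale for KO and between -0.23 and 0.23 for DKO. Their medians were 0.08 and -0.08, beside 0.03 and 0.00 over all genes tested. For 1 of the 10 genes in each comparison the groups did not overlap, where 8.02% and 6.07% of all genes did not.

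The 3 genes that rose with RAS in both series had WT and knockout RAS libraries that overlapped. Nfe2l2 stood at 237, 188.5 and 175 CPM in KO RAS cells, against 223, 223 and 191.5 CPM in WT RAS cells, and at 269, 259 and 234 CPM in DKO against 234, 225 and 233 CPM in WT. The log2 differences were -0.09 (95% interval -0.42 to 0.25) and 0.14 (-0.10 to 0.38). Hmox1 stood at 634, 534.5 and 497 CPM in KO and at 633, 613 and 563 CPM in DKO, with log2 differences of 0.27 (-0.13 to 0.68) and -0.05 (-0.39 to 0.30). Srxn1 stood at 248, 284 and 159.9 CPM in KO and at 173, 139.6 and 145.5 CPM in DKO, with log2 differences of -0.05 (-0.58 to 0.48) and -0.20 (-0.64 to 0.25). The interval for Srxn1 in KO cells was the widest of these 6, and each interval holds both rises and falls.

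Txnrd1 was the member with the smallest adjusted p for S6K1 loss. Its KO RAS libraries stood at 325, 326 and 304 CPM, above all 3 WT RAS libraries (246, 222 and 294 CPM), at a log2 difference of 0.33 (95% interval -0.04 to 0.69, adjusted p = 0.821). The DKO libraries, at 391, 333 and 269 CPM, overlapped WT RAS (297, 404 and 419.9 CPM) with a log2 difference of -0.17 (-0.65 to 0.30). Keap1 was the member whose groups did not overlap for DKO, at 54.3, 53.2 and 58.7 CPM against 51.0, 47.9 and 42.7 CPM (log2 0.23, 95% interval -0.01 to 0.47, adjusted p = 1.0). In KO cells it stood at 51.0, 54.6 and 50.6 CPM, with a log2 difference of -0.03 (-0.27 to 0.20). The other 5 genes, Nqo1, Gclc, Gclm, Slc7a11 and Gsr, had log2 differences of -0.05 to 0.28 for KO and -0.23 to 0.07 for DKO. Their intervals were widest for Nqo1 in DKO cells (-0.95 to 0.77), where the libraries spread from 7.63 to 17.0 CPM. The loss effects were also compared with each other over 18 libraries: 0 of the 10 differed between DKO and KO, with 0.0069% of all genes called, 1 of the 10 (Keap1) and 1.23% of all genes under an unadjusted p of 0.05, and 0 of the 10 called by DESeq2.

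Among the 97 antioxidant genes of the 8 lists, 0 were called for KO or DKO by edgeR, with 2 and 1 under an unadjusted p of 0.05. With the pairing by number 1 of the 88 tested was called for KO, where 4.15% of all genes were. It was Fth1, the ferritin heavy chain, at a log2 difference of -0.46 and a paired adjusted p of 0.0179, named here after its values were seen. ATF4 pathway and heat shock genes had 0 called in both losses, with and without the replicate block, and 0 under an unadjusted p of 0.05. Their median log2 differences were -0.03 and 0.00 for KO and 0.06 and 0.16 for DKO. All 19 macrophage markers lay below 0 for KO against WT, with a median of -2.24, and 0 were called without and 18 with the pairing. Without the pairing all 19 were under an unadjusted p of 0.05, where 6.86% of all genes were. For DKO all 18 tested lay below 0 with a median of -1.92, with 0 called and 1 under an unadjusted p of 0.05, where 1.29% of all genes were. Hmox1, which macrophages also express, was called in neither comparison, and the part of the markers in its values was not tested.

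Pattern likeness was measured against the mean z score of the 8 target genes over 18 libraries, each gene centred within its series. The 5 genes of 13550 most like this profile were Tgif1, Arid3b, Cldn12, Arhgap22 and Cars, each at a Pearson r of 0.94. The profile contains the target genes themselves, and the libraries share the RAS and EV groups, so r describes these libraries only. Srxn1 and Hmox1 had r of 0.89 with it and ranked 88 and 114. Nfe2l2, which was not part of the profile, had an r of 0.87 and Keap1 one of -0.76. Of the 8 target genes in the profile, Gclm and Slc7a11 were the least like it, at 0.25 and 0.26.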

How the data were processed

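The deposited file was a table of raw read counts per gene for 18 libraries, which the authors made and did not normalize. According to the study's methods, stranded mRNA libraries were read single-end, aligned with TopHat to mm9 and counted with HTSeq. The labels' processing notes instead name CASAVA, STAR 2.7.1a, DESeq2 1.28.1 and mm10. Of 55401 identifiers, 22812 were not in the mm9-era annotation. Coordinates are given on GRCm38.p6 (mm10), and exon lengths come from the older annotation by identifier. Where aligner and annotation are unsettled, counts of genes with near-identical copies are least certain.

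Each series of 9 libraries was fitted alone with edgeR 4.0.16 (R 4.3.3): filterByExpr with a minimum count of 10, TMM scaling, and the quasi-likelihood F test, two-sided, with Benjamini-Hochberg adjustment over all genes tested. The differences between series used all 18 libraries. SEs are the log2 fold change divided by the root of F, and intervals are 95%. Levels are CPM after TMM. Total counts were 8319445 to 14402442 per library, and intervals cover the spread between libraries, which limits precision more than counting does. The fits of the RAS comparisons were tested first on simulated counts that held no effect of replicate number. The loss comparisons were not simulated. No 2 replicates agreed within sampling noise (lowest chi-square per degree of freedom 7.98 over 18 pairs).

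Same-numbered EV and RAS libraries were taken to come from the same WT line, and same-numbered S6K1 KO and WT lines from the same litter. The methods state that S6K1 KO and WT cells were littermates, but not that equal numbers mark a line or litter. Deviations of same-numbered libraries correlated at 0.685, 0.44 and 0.646 (RAS, S6K1 series), 0.374, 0.289 and 0.317 (RAS, S6K1/S6K2 series) and 0.706, 0.406 and 0.613 (S6K1 KO), so paired values are given where they changed a printed call or moved a list's count by over 1.5 times. Separate embryos or mothers are the replicates as far as the methods say.

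The 10 genes, the other gene lists and the marker lists were chosen with earlier results of these data known. In every other list and comparison, the text names at most 2 called genes per direction, those of largest change whose groups did not overlap and whose mean was 10 CPM or more. Hspb1, Hsph1, Hspa1b, Sod1, Sod3, Cybb and Fth1 were named outside this rule, because only the fit with the pairing called them. Alternatives were other scalings, DESeq2 1.42.0, other filters, other sets of libraries, the replicate block and leaving out each library. The kinase-loss values of 1 gene list, NADPH oxidase, are not reported here.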

Additional observations from a re-analysis of the deposited data

Results flagged for a closer look

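Rps6kb2, the S6K2 gene, was the single gene whose loss effect differed between the series by the test of the difference. Its log2 effect in DKO minus that in S6K1 KO cells was -3.11 (SE 0.20, adjusted p = 9.1e-07, edgeR's quasi-likelihood test over 18 libraries), as S6K2 was deleted in the DKO cells alone. None of the 10 NRF2 pathway genes differed between the series in the RAS effect or in the loss effect by these tests. With 3 libraries a group, single libraries were not tested as outliers.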

How the results depend on the processing

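The members called were the same genes under the other scalings, DESeq2, both filters and both library sets: Nfe2l2, Hmox1 and Srxn1 in the S6K1 series, these and Keap1, Gclc and Txnrd1 in the S6K1/S6K2 series, and none for the loss comparisons. The differences between series, with none called, were run with DESeq2 size factors, DESeq2 and no filter. The replicate block added Gclm in the S6K1 series and changed no other member's call. Leaving out 1 library gave 2 to 3 and 5 to 6 called members for RAS, 0 for both losses and 0 to 2 for the difference in the RAS effect.

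Counts over all genes moved more. For RAS in the S6K1 series the replicate block gave 5085 called genes, and leaving out 1 library gave 1043 to 1919. Leave-one-out fits for RAS in the S6K1/S6K2 series gave 2050 to 4199. For S6K1 KO the count of 1 became 96 with DESeq2, 108 with no filter, 583 with the replicate block, 0 with only the 6 compared libraries, 4 with all 18 libraries and 0 to 22 without 1 library. For DKO the count of 3 became 10, 11, 8 and 7 with DESeq2, no filter, the replicate block and all 18 libraries, and 1 to 3 without 1 library. Same-numbered DKO and WT RAS libraries share only a number (correlations of deviations 0.274, 0.471 and -0.033), so that block is no pairing. For the difference in the RAS effect, 0 became 142 with DESeq2, 204 with no filter, 58 with the replicate block and 0 to 290 without 1 library. The cause of these shifts was not tested. Among the other named genes 5 calls for RAS, in 7 fits that kept each group whole, were lost with the direction kept: Maff, Prdx1, Akr1b3 and Trib3 in the S6K1 series and Ddit3 in the S6K1/S6K2 series.

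Members whose sign changed were not called with or without the library concerned. Nqo1 under RAS in the S6K1/S6K2 series was at -0.003 with upper-quartile scaling. Without 1 library the log2 values under RAS in the S6K1 series ran from -0.001 to 0.29 for Nqo1, -0.19 to 0.05 for Gclc and -0.18 to 0.32 for Slc7a11. In the S6K1/S6K2 series they ran from -0.25 to 0.30 for Nqo1, -0.60 to 0.11 for Gclm and -0.12 to 0.42 for Slc7a11. For S6K1 KO the ranges were -0.23 to 0.002 for Nfe2l2, -0.01 to 0.22 for Gclc, -0.09 to 0.17 for Gclm, -0.23 to 0.16 for Srxn1, -0.06 to 0.37 for Slc7a11 and -0.24 to 0.11 for Gsr. For DKO they were -0.28 to 0.20 for Nqo1, -0.11 to 0.0007 for Hmox1, -0.17 to 0.05 for Gclc, -0.04 to 0.13 for Gclm and -0.38 to 0.04 for Srxn1. For the difference in the RAS effect they were -0.07 to 0.13 for Nfe2l2, -0.39 to 0.16 for Nqo1, -0.40 to 0.01 for Srxn1, -0.23 to 0.32 for Slc7a11 and -0.07 to 0.21 for Gsr. For the difference in the loss effect they were -0.23 to 0.01 for Gclc, -0.09 to 0.18 for Gclm, -0.32 to 0.12 for Srxn1 and -0.24 to 0.10 for Gsr.

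Depth was not the main limit for the members, whose lowest level was 5.31 CPM (Slc7a11). The spread between 3 libraries was, and in the loss comparisons intervals of the 10 genes reached from -0.95 to 0.90 on the log2 scale. Knockout cells with empty vector were not analysed here, so an effect of the kinases without RAS cannot be read from these comparisons. Counts of RNA do not show NRF2 protein.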
